A study of Bos taurus with 8 samples.

Results

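The nuclear genes of oxidative phosphorylation were followed through 4 days of cattle embryo development. They were taken by symbol as the NDUFA, NDUFB, NDUFC, NDUFS and NDUFV genes followed by a number, SDHA to SDHD, the UQCR genes, COX4 to COX8, CYC1, CYCS and the ATP5 genes. The rule gave 85 of the 18825 genes in the table. Complex I had 36 of them, complex II 4, complex III 9, cytochrome c 1, complex IV 16 and complex V, the ATP synthase, 19. Not all are subunits: complex IV includes COX7A2L, a supercomplex factor, and complex V includes ATP5IF1, an inhibitor, and ATP5S, a related protein. Of the 85 genes, 83 passed the filter on low values and were tested among 12540 genes, and COX4I2 and COX6A2 did not pass.

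Oxidative phosphorylation is the mitochondrial process in which electrons from NADH and succinate pass through complexes I, II, III and IV to oxygen, while protons are pumped across the inner membrane and drive the ATP synthase. Most subunits are encoded in the nucleus and imported, and a small core set is encoded by mitochondrial DNA and was not analysed here. Some subunits exist as tissue isoforms encoded by different genes, such as the heart and muscle form COX7A1 beside the widely expressed COX7A2. Mammalian embryos use pyruvate oxidation from the start, and the blastocyst adds strong glycolysis.

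The cells came from wildtype bovine embryos and carried an age and a class in the authors' cell table. Morula cells were 6 days old (58 cells) and EB cells 7 days (39 cells). MB TE (37 cells) and MB ICM (51 cells) were 8 days old. LB PE (25 cells), LB TE (31 cells) and LB EPI (45 cells) were 9 days old. TE, ICM, EPI and PE are the usual short forms of trophectoderm (the outer layer that forms placenta), inner cell mass, epiblast (which forms the fetus) and primitive endoderm (the hypoblast of cattle), while EB, MB and LB are given as in the table. Cells sat in 6 libraries, numbered as replicates, and the mean of a class in a library was used where it had at least 3 cells. This gave 2 averages for Morula, 1 for EB, 3 each for MB TE, MB ICM and LB EPI, and 2 each for LB PE and LB TE. The sources used here do not state how embryos were produced, which embryo a cell came from or how cells were sorted into classes. The p-values thus rest on the spread of library averages, not of embryos. All 7 classes share 1 estimate of that spread in the fit. EB, with 1 average, adds nothing to it, so tests of EB borrow the spread of the other classes.

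All 48 well barcodes occur in 2 or more libraries. The median depth was 150770.5 reads per cell, from 2633 to 747345, and LB PE was the shallowest class with a median of 39210. Levels are given as CPM, reads scaled to the same total in every cell and averaged over cells. The summed markers of trophectoderm, epiblast and primitive endoderm were highest in the classes of those names, but single markers did not all follow. Trophectoderm markers (6 genes) summed to 30370 to 57779 CPM in MB TE, against 1697 to 2445 in MB ICM. Epiblast markers (4 genes) summed to 2038 to 2326 CPM in LB EPI, 474 to 656 in MB ICM and 398 to 594 in LB PE. Primitive endoderm markers (5 genes) summed to 5683 to 5979 CPM in LB PE, where FN1 alone averaged 4593 CPM. Among these, GATA6 averaged 540 CPM in EB, 396 in LB PE, 252 in MB TE and 243 in MB ICM. The epiblast marker SOX2 averaged 201 CPM in LB EPI, 180 in EB, 134 in Morula and 108 in MB ICM. Of genes of other cells that embryos can carry (cumulus, sperm, fibroblast and blood), 18 were in the table and 12 tested, and their summed level ran from 64.6 to 1599 CPM, with both ends in Morula. PRM1 and TNP1 (sperm), AMH and PTX3 (cumulus and granulosa) and HBA and PTPRC (blood) stayed at or below 5.86 CPM in every average. Others of the list reached higher levels in at least 1 average: INHBA (cumulus and granulosa) ran up to 809 CPM and INHA to 156, CD74 (blood) to 87.3, and the fibroblast genes COL1A1, COL1A2 and DCN to 393, 249 and 155 CPM.

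The 85 genes together took 3.36 ± 0.559% of the reads of a cell in LB EPI and 4.73 ± 0.381% in MB ICM (SD, n = 3 each). In LB EPI the libraries gave 3.73%, 2.72% and 3.64% (replicates 2, 3 and 5). In MB ICM they gave 4.52%, 4.49% and 5.17% (replicates 1, 2 and 5). The LB EPI and MB ICM averages did not overlap. MB TE stood at 3.97%, 4.18% and 3.49% (replicates 1, 2 and 3), and every one of these lay below MB ICM. Morula held 5.12% in replicate 4 and 3.44% in replicate 6, and the EB average of replicate 4 was 3.74%. LB PE held 2.92% in replicate 3 and 4.82% in replicate 5, and LB TE held 3.17% and 3.76% in the same libraries.

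Libraries of the same class could differ as much as classes did. Replicate 3 was below replicate 5 in each class of day 9. Between these libraries, 70 of the 83 tested genes were higher in replicate 5 in LB PE, 64 in LB TE and 68 in LB EPI. The median log2 change of replicate 5 over 3 was 0.59, 0.22 and 0.34 for the set in these classes. For all tested genes it was −0.24, −0.03 and −0.09. The LB PE cells of replicate 3 had a median of 37976 reads and those of replicate 5 a median of 98488, and the part of this depth gap in the result was not tested. In Morula, 9 of the 83 genes were higher in replicate 6 than in replicate 4, with a median of −0.54, against 0.04 for all tested genes. Morula cells of replicate 6 had a median of 77442 reads and those of replicate 4 one of 216390. The part of this depth gap was not tested either. Classes are therefore also compared within a library wherever it gave averages of both.

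**Figure D1:**
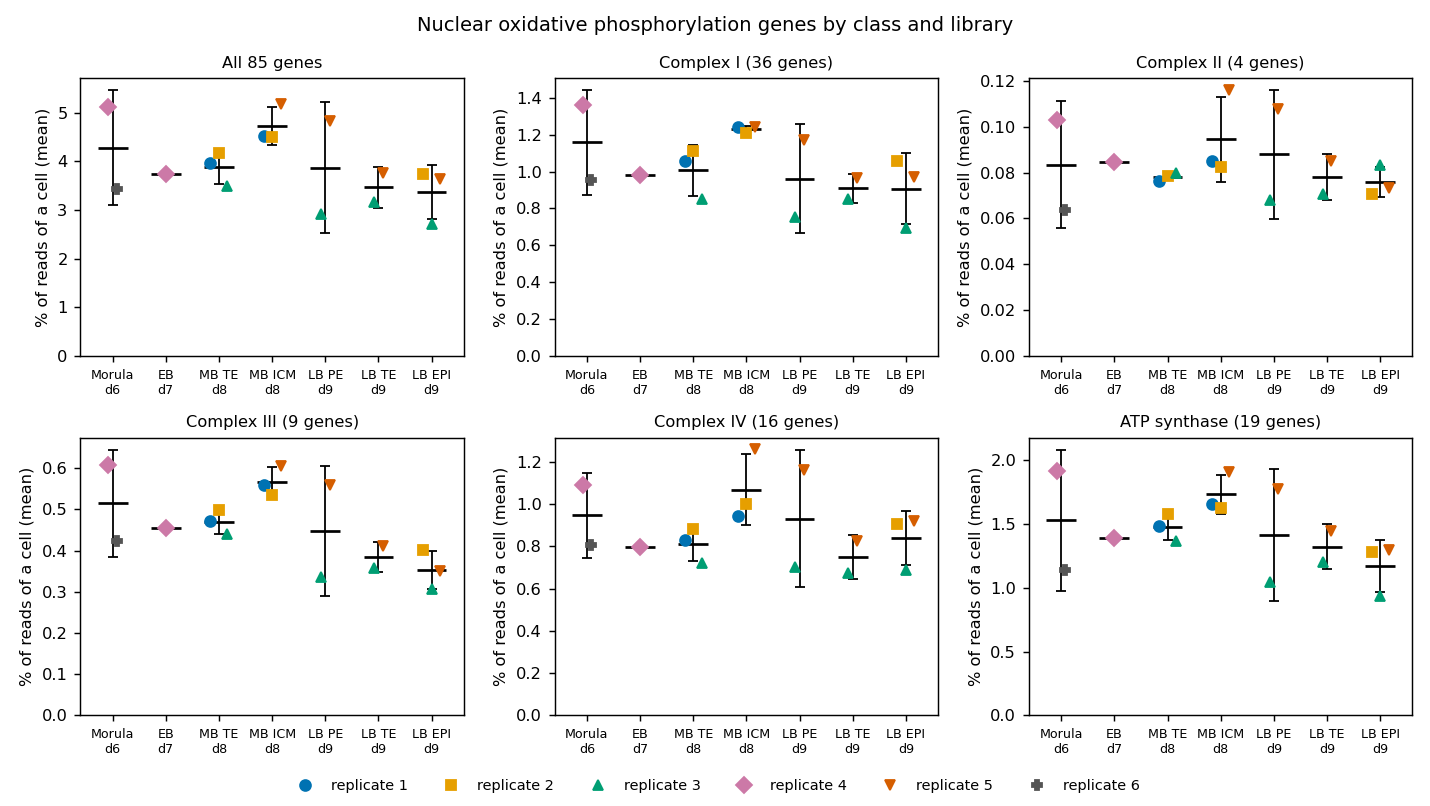
Summed share of reads (percent of the reads of a cell, mean over the cells of a library) for all 85 genes and for each complex, by class and day; points are libraries, bars are class means with SD where there were at least 2 libraries. MB ICM averages 4.73% for all genes and LB EPI 3.36%, while the LB PE averages lie at 2.92% and 4.82%.

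The day 9 epiblast was compared with the day 8 inner cell mass, from which it descends. Most of the respiratory chain was lower in LB EPI, and complex III had the lowest median change. Of 83 genes, 6 fell in LB EPI (UQCR11, UQCRB and CYC1 of complex III, NDUFB6 and NDUFB7 of complex I, and ATP5MC1 of the ATP synthase), where 1.81% of all tested genes fell, and COX7A1 alone rose, where 3.29% of all tested genes rose (adjusted p under 0.05, limma). The log2 change was negative for 74 of the 83, or 89.2%, beside 47.6% of all tested genes. For 50 genes every LB EPI average lay below every MB ICM average, or 60.2%, beside 8.62% of all tested genes, and for 3 (COX7A1, ATP5S and NDUFV3) every one lay above, beside 11.7%. At an unadjusted p under 0.05, 38 genes were lower, or 45.8%, beside 7.11% of all tested genes. The number of falling genes with an adjusted p under 0.05 was 3 without replicate 1, 2 without replicate 2 or 3, and 1 without replicate 5. Without replicate 3, the LB EPI library with the lowest share, 69 of the 83 were still negative.

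The median log2 change of the 83 genes was −0.53, against 0.02 for all tested genes and −0.10 for the 1819 with a mean of at least 100 CPM. Both libraries that held both classes showed the same side. In replicate 2 the summed share was 3.73% in LB EPI and 4.49% in MB ICM, and 69 genes were lower. In replicate 5 it was 3.64% in LB EPI and 5.17% in MB ICM, and 68 genes were lower. In both libraries 65 genes were lower, or 78.3%, beside 23.6% of all tested genes. The choice of average mattered for the size: when logs were averaged over cells, 61 of the 83 were negative (73.5%, beside 36.7% of all tested genes) and the median was −0.33, against 0.10 for all tested genes.

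Markers of another lineage moved with this comparison. All 5 primitive endoderm markers fell in LB EPI, and their sum ran from 565 to 862 CPM in LB EPI against 3909 to 4215 CPM in MB ICM. None of the 5 was at 0 in either class. LB PE, the class with the highest sum of these markers, held 2.92% and 4.82% of reads in the respiratory genes. The part of primitive endoderm cells in the difference between LB EPI and MB ICM was not tested.

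**Figure D2:**
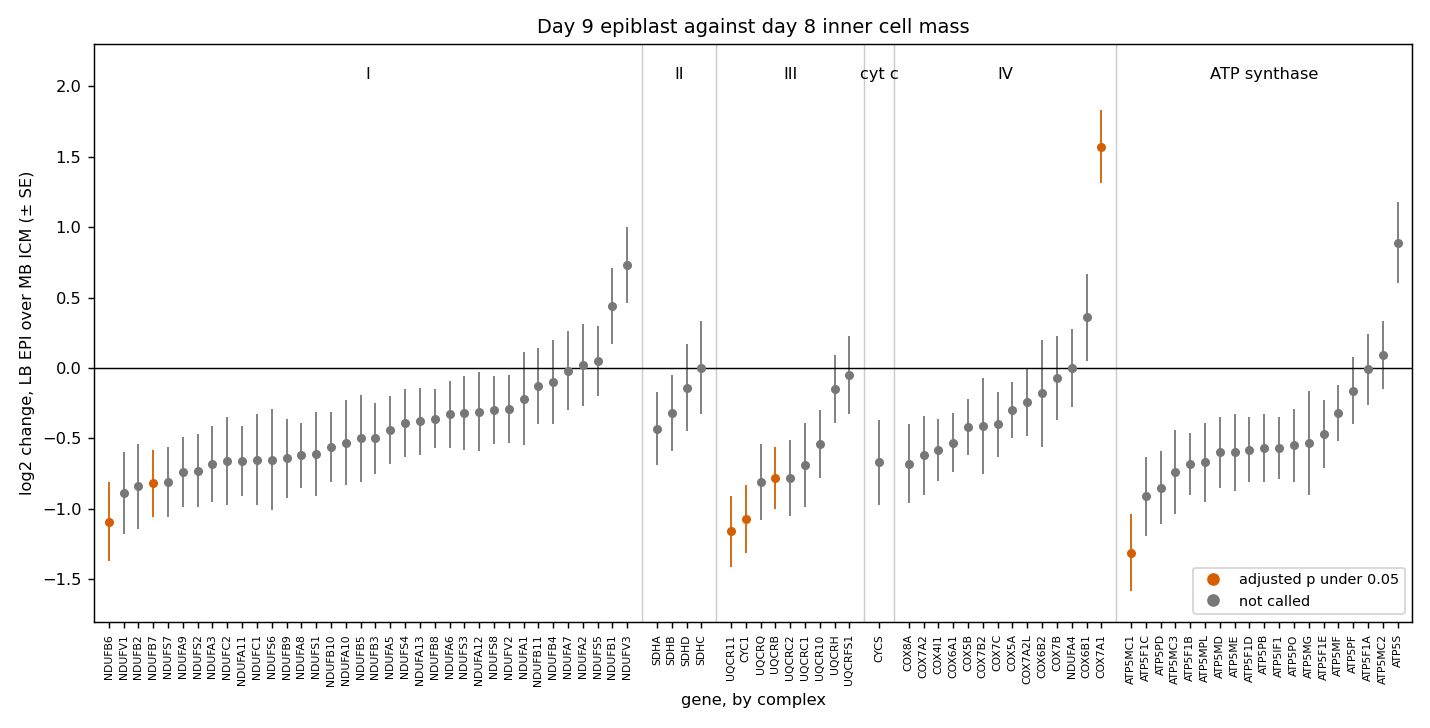
Log2 change of LB EPI over MB ICM for each of the 83 tested genes, grouped by complex and ordered by size; bars are ± SE and orange marks an adjusted p under 0.05. All 9 genes of complex III lie below 0, and COX7A1 stands alone at 1.57.

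By complex, the median change was lowest in complex III (−0.78) and stood at −0.67 for CYCS, −0.57 for the ATP synthase, −0.50 for complex I, −0.35 for complex IV and −0.23 for complex II. Differences between complexes were not tested. The summed share of complex III was 0.353 ± 0.0468% of reads in LB EPI and 0.567 ± 0.0356% in MB ICM (SD, n = 3 each).

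Complex I takes electrons from NADH, and 32 of its 36 genes had a negative change. NDUFB6, an accessory subunit of the membrane arm, was at 177, 134 and 106 CPM in LB EPI and at 281, 342 and 306 CPM in MB ICM. The groups did not overlap, and the log2 change was −1.09 (SE 0.28, adjusted p = 0.0267, limma). NDUFB7, another accessory subunit of that arm, was at 191 ± 41.3 CPM in LB EPI and 351 ± 38 CPM in MB ICM (SD, n = 3 each), a change of −0.82 (SE 0.24, adjusted p = 0.0493, limma). The NDUFB7 call was lost without any 1 of the 6 libraries (adjusted p 0.0527 to 0.201), and the NDUFB6 call without replicate 1, 2 or 5 (0.074 to 0.131). NDUFV3, an accessory subunit of the NADH-binding module that is singled out here after its values were seen, went the other way without passing the test. It was at 241, 235 and 408 CPM in LB EPI and at 163, 172 and 169 CPM in MB ICM (log2 change 0.73, SE 0.27, adjusted p = 0.143).

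Complex II, succinate dehydrogenase, also works in the citric acid cycle. None of its 4 genes passed the limma test in either direction here, none had an unadjusted p under 0.05, and voom on summed reads called none. SDHA, the flavoprotein subunit that oxidises succinate, was at 273 ± 16.2 CPM in LB EPI and 376 ± 42.6 CPM in MB ICM, a difference of −0.43 on the log2 scale (adjusted p = 0.419, SE 0.26). SDHB, the iron-sulfur subunit, had −0.32 (SE 0.27), and the membrane anchors SDHC and SDHD had 0.00 (SE 0.33) and −0.14 (SE 0.31).

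Complex III passes electrons from ubiquinol to cytochrome c, and all 9 of its genes were lower in LB EPI without overlap. UQCR11, a small subunit, was at 450, 316 and 321 CPM in LB EPI and at 795, 900 and 807 CPM in MB ICM. Its log2 change was −1.16 (SE 0.25, adjusted p = 0.00756, limma). CYC1, the cytochrome c1 haem protein that hands electrons on, was at 360, 229 and 183 CPM in LB EPI and at 510, 545 and 533 CPM in MB ICM. The MB ICM values of CYC1 were close together and the LB EPI values spread, and the change was −1.07 (SE 0.24, adjusted p = 0.00877, limma).

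UQCRB, a small subunit beside the ubiquinone site, was at 405 ± 57.2 CPM in LB EPI and 716 ± 166 CPM in MB ICM (SD, n = 3 each; log2 change −0.78, SE 0.22, adjusted p = 0.0384, limma). UQCRFS1, the Rieske iron-sulfur protein, was at 436, 427 and 407 CPM in LB EPI and at 443, 466 and 461 CPM in MB ICM, a change of −0.05 (SE 0.28, adjusted p = 0.982). Calls in complex III depended on single libraries: CYC1 was lost without replicate 3 (adjusted p = 0.0648) or 5 (0.149), UQCR11 without replicate 2 (0.0528), and UQCRB without replicate 1, 2, 3 or 5 (0.0971 to 0.188). CYCS, the mobile carrier cytochrome c, was at 198 ± 91.9 CPM in LB EPI and 321 ± 54.7 CPM in MB ICM, a change of −0.67 (SE 0.30, adjusted p = 0.252).

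Complex IV reduces oxygen, and COX7A1 was the sole gene of the set to rise. Its reads were few. COX7A1 was at 21, 33.4 and 27.6 CPM in LB EPI (52, 76 and 176 reads in 11, 9 and 24 cells) and at 0.698, 2.62 and 4 CPM in MB ICM (3, 7 and 2 reads in 24, 21 and 5 cells). Every LB EPI average lay above every MB ICM average, with a log2 change of 1.57 (SE 0.26, adjusted p = 0.000864, limma). The added 10 CPM understates this change, which was 3.08 with 1 CPM added and 3.87 with voom on summed reads. The call held under every alternative tried and without each library in turn.

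COX7A1 was near absent before day 9. It had 0 reads in the EB average, which allows up to 0.811 CPM (3 reads), 0 and 0.569 CPM in Morula, and 0.683, 0.87 and 2.04 CPM in MB TE. On day 9 it was at 7.69 and 14.6 CPM in LB PE and at 5.65 and 9.52 CPM in LB TE, so each LB EPI average lay above every other average of the series. Its widely expressed partner COX7A2 was at 251 ± 88.8 CPM in LB EPI and 402 ± 54.4 CPM in MB ICM (log2 change −0.62, not called).

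Other isoforms of complex IV showed no such step. The lung isoform COX4I2 had 7 reads in 4 cells of the series and the muscle isoform COX6A2 14 reads in 4 cells, so changes in either could not be measured at this depth. COX4I1, the main form of subunit 4, was at 1147, 1062 and 1098 CPM in LB EPI and at 1397, 1461 and 2312 CPM in MB ICM, without overlap and without a call. COX6B1 differed by 0.36 on the log2 scale (adjusted p = 0.638, SE 0.31), while its testis isoform COX6B2 differed by −0.18 (adjusted p = 0.903, SE 0.38). NDUFA4, first ascribed to complex I and now placed in complex IV, stood at 1261 ± 294 CPM in LB EPI and 1316 ± 277 CPM in MB ICM.

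The ATP synthase makes ATP as protons flow back through its ring of c subunits. ATP5MC1, ATP5MC2 and ATP5MC3 encode the same mature c subunit with different import signals. ATP5MC1 was at 358, 276 and 375 CPM in LB EPI and at 742, 574 and 1388 CPM in MB ICM. The groups did not overlap, replicate 5 of MB ICM (5 cells) stood highest, and the log2 change was −1.31 (SE 0.27, adjusted p = 0.006, limma). Without replicate 5 the change was −1.03 (adjusted p = 0.0853), and without replicate 3 −1.21 (0.0646).

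ATP5MC2 was at 667, 439 and 667 CPM in LB EPI and at 527, 506 and 665 CPM in MB ICM, with a change of 0.09 (SE 0.24, adjusted p = 0.935). ATP5MC3 was at 1263, 716 and 1344 CPM in LB EPI and at 1766, 1615 and 2365 CPM in MB ICM, a change of −0.74 (SE 0.30, adjusted p = 0.184). As a share of the reads of the 3 genes, ATP5MC2 held 29.1%, 30.6% and 28% in LB EPI and 17.4%, 18.8% and 15.1% in MB ICM. ATP5MC1 held 15.6%, 19.3% and 15.7% in LB EPI and 24.4%, 21.3% and 31.4% in MB ICM. Both shares separated the classes without overlap, and no test was run on them. On day 9, ATP5MC2 held 22.4 ± 4.74% in LB PE and 16.7 ± 1.62% in LB TE (SD, n = 2 each).

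ATP5IF1, the protein that stops the ATP synthase from running backwards, was at 835 ± 251 CPM in LB EPI and 1222 ± 101 CPM in MB ICM (log2 change −0.57, SE 0.22, adjusted p = 0.162). ATP5S, known as coupling factor B, was at 39.3, 42.1 and 39.4 CPM in LB EPI and at 23.4, 16.2 and 13.5 CPM in MB ICM. Its groups did not overlap, and it missed the threshold at 0.89 on the log2 scale (SE 0.29, adjusted p = 0.0842, limma).

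**Figure D3:**
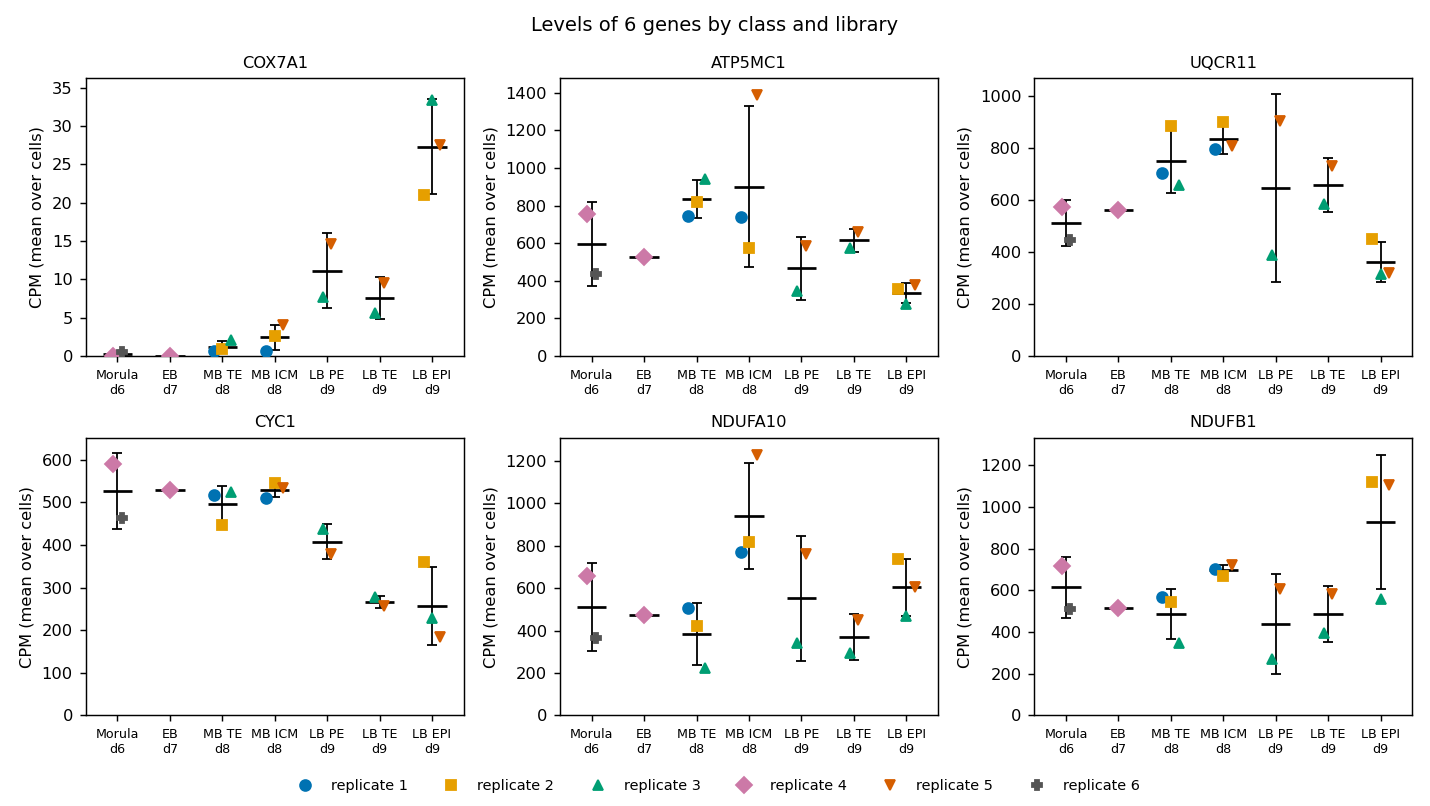
Level (CPM, mean over the cells of a library) of 6 genes by class and day; points are libraries and bars class means with SD. COX7A1 reaches 21 to 33.4 CPM in LB EPI, and UQCR11, CYC1 and ATP5MC1 are lower in LB EPI than in MB ICM.

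Genes of neighbouring processes were set beside the respiratory chain in the same comparison. Of 26 tested genes of pyruvate dehydrogenase and the citric acid cycle, 4 fell and 0 rose, with a median log2 change of −0.29. Among all tested genes, 1.81% fell and 3.29% rose. The change was negative for 16 of the 26 and positive for the others, beside 47.6% negative among all tested genes. At an unadjusted p under 0.05, 7 were lower and 1 higher, where 7.11% of all tested genes were lower. Voom called 5 lower and 0 higher. CS, citrate synthase, which opens the cycle, was at 209 ± 32.6 CPM in LB EPI and 663 ± 235 CPM in MB ICM (log2 change −1.62, SE 0.26, adjusted p = 0.00065, limma). PDP2, a phosphatase that activates pyruvate dehydrogenase, fell by 1.81 (SE 0.36), and the cycle enzymes MDH2 and IDH3A fell by 0.94 (SE 0.25) and 0.98 (SE 0.27).

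Of the 19 tested glycolysis genes, 2 rose and 0 fell, where 3.29% and 1.81% of all tested genes did, with a median of 0.59. Unadjusted, 9 were higher and 0 lower, where 7.11% of all tested genes were lower, and voom called 3 higher and 0 lower. The list did not move as a whole: the change was positive for 11 of the 19 and negative for 8. Among all tested genes, 52.3% were positive and 47.6% negative. PGAM1, phosphoglycerate mutase, was at 2867 ± 1041 CPM in LB EPI and 1083 ± 126 CPM in MB ICM (log2 change 1.32, SE 0.23, adjusted p = 0.00136, limma). PKM, pyruvate kinase, was at 1862 ± 628 CPM in LB EPI and 921 ± 231 CPM in MB ICM (0.92, SE 0.24, adjusted p = 0.0282). GAPDH had 0.83 (SE 0.26, adjusted p = 0.0693) and was not called.

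Of 78 genes of mitochondrial ribosomal proteins, which translate the genes of mitochondrial DNA, 4 fell (MRPL4, MRPL34, MRPL41 and MRPL46) and 0 rose. Of all tested genes 1.81% fell and 3.29% rose. The median of the list was −0.32. Unadjusted, 14 were lower and 0 higher, where 7.11% of all tested genes were lower, and voom called 8 lower and 0 higher. MRPL41 was at 110 ± 25.2 CPM in LB EPI and 227 ± 30.3 CPM in MB ICM (log2 change −0.98, SE 0.27, adjusted p = 0.0378, limma). Assembly factors of the complexes (46 tested) gave 0 calls with limma, against 1 higher and 6 lower at an unadjusted p under 0.05 and 3 lower with voom, and had a median of −0.13. Mitochondrial import (24 tested) also gave 0 calls with limma, against 1 higher and 2 lower unadjusted and 2 lower with voom, and had a median of −0.35. The unadjusted lower counts of assembly factors and import are likewise to be read against 7.11% of all tested genes.

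Regulators of mitochondrial biogenesis (20 tested) gave 0 calls with limma (1 higher and 1 lower unadjusted, 1 lower with voom), with a median of 0.07. PPARGC1B, a coactivator of mitochondrial genes, was at 39.7 ± 9.53 CPM in LB EPI and 78.6 ± 8.69 CPM in MB ICM (log2 change −0.90, SE 0.32, adjusted p = 0.13). Of 9 tested carriers and channels, VDAC3, a channel of the outer membrane, rose to 237 ± 62.1 CPM in LB EPI, against 93.7 ± 25.6 CPM in MB ICM (1.25, SE 0.26, adjusted p = 0.00571, limma). Of all tested genes 3.29% rose, and 7.11% were lower unadjusted. In the list of carriers and channels 0 fell with limma, against 2 lower unadjusted and 2 lower with voom, and the median was −0.05. Of the genes of other cells, 0 of 12 were called (0 unadjusted, 0 with voom).

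On day 8, trophectoderm was compared with the inner cell mass. The respiratory genes leaned lower in MB TE with 1 call. NDUFA10, an accessory subunit of complex I, fell, where 4.11% of all tested genes fell. No gene rose with limma, where 5.97% of all tested genes rose, and 0 rose with voom. Unadjusted, 0 genes were higher, where 11.9% of all tested genes were. Unadjusted, 6 genes were lower, where 11.4% of all tested genes were. NDUFA10 was at 508, 422 and 222 CPM in MB TE and at 772, 820 and 1228 CPM in MB ICM, without overlap, and changed by −1.19 (SE 0.30, adjusted p = 0.0127, limma).

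The NDUFA10 call was lost without replicate 2, 3 or 5 (adjusted p 0.059 to 0.07), and the MB TE average of replicate 3 rests on 3 cells. The change was negative for 69 of the 83 genes (83.1%, beside 54.1% of all tested genes), and the median was −0.19, against −0.04 for all and −0.15 for genes of at least 100 CPM. With logs averaged over cells, 46 of the 83 were negative (55.4%, beside 41.4%), so the lean depended on how cells were averaged. The groups separated for 22 genes, all lower in MB TE (26.5%, beside 12.3% of all tested genes).

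Within replicate 1 the summed share was 3.97% in MB TE and 4.52% in MB ICM, and within replicate 2 it was 4.18% in MB TE and 4.49% in MB ICM. COX4I1 was at 1118 ± 172 CPM in MB TE and 1723 ± 511 CPM in MB ICM (log2 change −0.53, SE 0.22, adjusted p = 0.135). COX5B, the zinc-binding subunit of complex IV, had −0.50 (SE 0.20, adjusted p = 0.125). All 6 trophectoderm markers rose in MB TE, and 4 of 5 primitive endoderm markers and 3 of 4 epiblast markers fell. Whether the expression of these cells was used to set their classes is not stated, so class and gene values may not be independent.

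**Figure D4:**
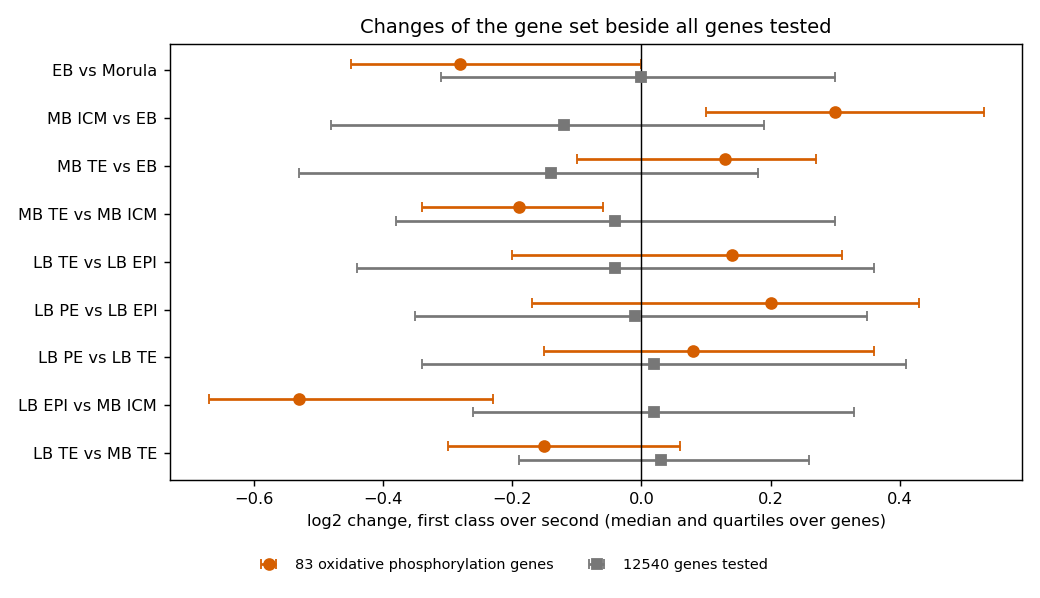
Median log2 change (point) and quartiles (bar) over the 83 tested genes in orange and over all 12540 tested genes in grey, for each comparison, first class over second. The orange median is −0.53 for LB EPI over MB ICM and between −0.28 and 0.30 in the other comparisons.

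Few genes of the set passed the test among the 3 lineages of day 9. Against LB EPI, 2 genes rose in LB TE (where 8.27% of all tested genes rose) and COX7A1 fell (where 6.9% fell). The median over the set was 0.14, which was 0.24 without replicate 2 and 0.07 without replicate 3 or 5. Within replicate 3 the set median was 0.23 and within replicate 5 it was 0.09, against −0.02 for all tested genes in each. UQCR11 was at 586 and 733 CPM in LB TE and at 450, 316 and 321 CPM in LB EPI (log2 change 0.90, SE 0.28, adjusted p = 0.0293, limma). NDUFC1, an accessory subunit of complex I, was at 470 and 423 CPM in LB TE and at 246, 143 and 283 CPM in LB EPI (1.05, SE 0.35, adjusted p = 0.047). COX7A1 was at 7.59 ± 2.74 CPM in LB TE (n = 2) and 27.3 ± 6.19 CPM in LB EPI (n = 3), a change of −1.11 (SE 0.29, adjusted p = 0.0102, limma).

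None of these calls held in every run without a library. COX7A1 was lost without replicate 3 (adjusted p = 0.164) and with 1 CPM added in place of 10 (0.127). UQCR11 was lost without replicate 1, 3 or 5 (0.0506 to 0.191), and NDUFC1 without each of replicates 1 to 5 (0.054 to 0.399), with a change of 0.61 without replicate 3.

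LB PE was compared with the same LB EPI averages, so the comparisons share them. NDUFB6 rose, where 2.98% of all tested genes rose, and NDUFB1 fell, where 2.41% fell. NDUFB6 was at 196 and 440 CPM in LB PE and at 177, 134 and 106 CPM in LB EPI (log2 change 1.11, SE 0.31, adjusted p = 0.0421, limma). NDUFB1, a small accessory subunit of complex I, was at 270 and 607 CPM in LB PE and at 1118, 559 and 1104 CPM in LB EPI, with overlapping groups (−1.07, SE 0.30, adjusted p = 0.0398).

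Within each library NDUFB1 was lower in LB PE, by −1.02 in replicate 3 and −0.85 in replicate 5. Without replicate 5 the NDUFB6 change was 0.42 (adjusted p = 0.626), and that call was lost also without replicate 1 or 2. The NDUFB1 call was lost without replicate 1, 2, 3 or 5 (0.0638 to 0.168). The median over the set was 0.20, which was 0.36 without replicate 3 and 0.01 without replicate 5. Within replicate 3 it was 0.14, against 0.03 for all tested genes, and within replicate 5 it was 0.39, against −0.09. COX7A1 was at 7.69 and 14.6 CPM in LB PE, below every LB EPI average, and was not called (−0.85, SE 0.29, adjusted p = 0.0893, limma), though it was with summed reads (−1.26, adjusted p = 0.00659) and with logs averaged over cells (−0.75, 0.0351).

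Between LB PE and LB TE, COX5B rose in LB PE, where 2.46% of all tested genes rose, and no gene fell (3 unadjusted, where 9.74% were lower unadjusted; 0 with voom), where 3.39% fell. COX5B was at 1902 and 2140 CPM in LB PE and at 1056 and 1212 CPM in LB TE (log2 change 0.83, SE 0.24, adjusted p = 0.0433, limma). The change was 0.84 within replicate 3 and 0.81 within replicate 5, and the call was lost without replicate 1, 2, 3 or 5 (0.0759 to 0.241). The set median was 0.08, which was 0.34 without replicate 3 and −0.12 without replicate 5. Within replicate 3 it was −0.12, against 0.08 for all tested genes, and within replicate 5 it was 0.34, against −0.07.

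Trophectoderm of day 9 was also compared with that of day 8, and no gene was called with limma or with voom. At an unadjusted p under 0.05, 0 genes were higher and 5 lower, beside 3.37% and 2.22% of all tested genes. Of all tested genes, 0.159% rose and 0.0319% fell with limma. The median was −0.15, against 0.03 for all tested genes. Replicate 3, the library with averages of both, gave a median of −0.00 against 0.08 for all tested genes. There 41 genes were higher and 42 lower in LB TE, and the MB TE average rests on 3 cells. CYC1 was at 277 and 257 CPM in LB TE and at 517, 446 and 524 CPM in MB TE, without overlap (log2 change −0.81, SE 0.27, adjusted p = 0.458). NDUFB7 was at 146 ± 33.8 CPM in LB TE and 278 ± 49.9 CPM in MB TE (−0.83, SE 0.27, adjusted p = 0.431). UQCR11 was at 660 ± 104 CPM in LB TE and 749 ± 121 CPM in MB TE (−0.16, SE 0.28, adjusted p = 1).

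Whether the trophectoderm difference itself changed from day 8 to day 9 was tested as an interaction. Its terms include the LB EPI and MB ICM averages, so it is not independent of the fall between those classes given above. No gene of the set passed with limma (2 higher and 1 lower unadjusted, 0 with voom), where 0.215% of all tested genes passed as higher and 0.152% as lower, and 4.55% and 5.05% did unadjusted. The interaction was positive for 68 of the 83 (81.9%, beside 50.2% of all tested genes), with a median of 0.30 against 0.00 for all tested genes. With logs averaged over cells, 56 of the 83 were positive (67.5%, beside 42.0%), and the median was 0.14, against −0.08 for all tested genes. UQCR11 had an interaction of 1.0 (SE 0.37, adjusted p = 0.326), and COX7A1 −0.99 (SE 0.38, adjusted p = 0.348).

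At the earlier steps no gene of the set was called with limma. EB over Morula gave 0 unadjusted, where 2.53% of all tested genes were higher and 2.47% lower. It gave 0 with voom, and 0.0399% of all tested genes rose with limma and as many fell. The median there was −0.28, against −0.00 for all tested genes, and it was −0.47 without replicate 6. In replicate 4, which held both classes, 76 of the 83 genes were lower in EB, beside 43.9% of all tested genes. The summed share there was 3.74% in EB and 5.12% in Morula. Median depth in that library was 87902 reads per EB cell and 216390 per Morula cell, and the part of depth in the difference was not tested. Replicate 6 gave a lower Morula share, 3.44%, so the 2 Morula libraries lay on either side of the EB average.

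MB ICM over EB had a median of 0.30, with 4 genes higher and 0 lower at an unadjusted p under 0.05 and 0 with voom. Of all tested genes 0.0399% rose and 0.136% fell, and unadjusted 2.01% were higher and 5.62% lower. The change was positive for 73 of the 83 (88.0%, beside 39.4% of all tested genes), and for 48 all MB ICM averages lay above the EB average (57.8%, beside 15.9%). With logs averaged over cells, 62 of the 83 were positive (74.7%, beside 39.0%), and with median-ratio scaling the median was 0.57, against 0.01 for all tested genes. MB TE over EB had a median of 0.13, with 2 genes higher and 0 lower unadjusted and 0 with voom. Of all tested genes 0.534% rose and 0.463% fell, and unadjusted 3.63% were higher and 7.11% lower. The medians of all tested genes were −0.12 for MB ICM over EB and −0.14 for MB TE over EB, and the medians of the set are to be read against these. No library averaged here held both EB and a day 8 class, and at this step age cannot be told apart from library. ATP5IF1 was at 1222 ± 101 CPM in MB ICM (n = 3) and 692 CPM in the EB average (log2 change 0.80, SE 0.33, adjusted p = 0.574).

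In the 286 single cells the shares spread widely within each class. LB EPI cells had a median of 3.5% (1.52% to 5.06%, 45 cells) and MB ICM cells 4.81% (2.4% to 6.66%, 51 cells). MB TE cells had a median of 3.77% (37 cells). Medians were 3.29% in LB PE (25 cells) and 3.49% in LB TE (31 cells). EB cells had a median of 3.76% (39 cells) and Morula cells 4.2% (58 cells). Morula cells spread most, with a coefficient of variation of 41.7%, and those of replicate 6 ran from 0.601% to 6.41%, against 4.05% to 6.22% in replicate 4. Cells of a library are not replicates, so no test was run over them.

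A median cell had reads for 79 to 82 of the 85 genes, depending on the class, so a median cell missed few genes. The lowest cell had reads for 45 genes in MB ICM, 48 in Morula and 52 in LB PE. LB PE cells differed by library: those of replicate 5 had a median of 5.28% and those of replicate 3 one of 2.75%.

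**Figure D5:**
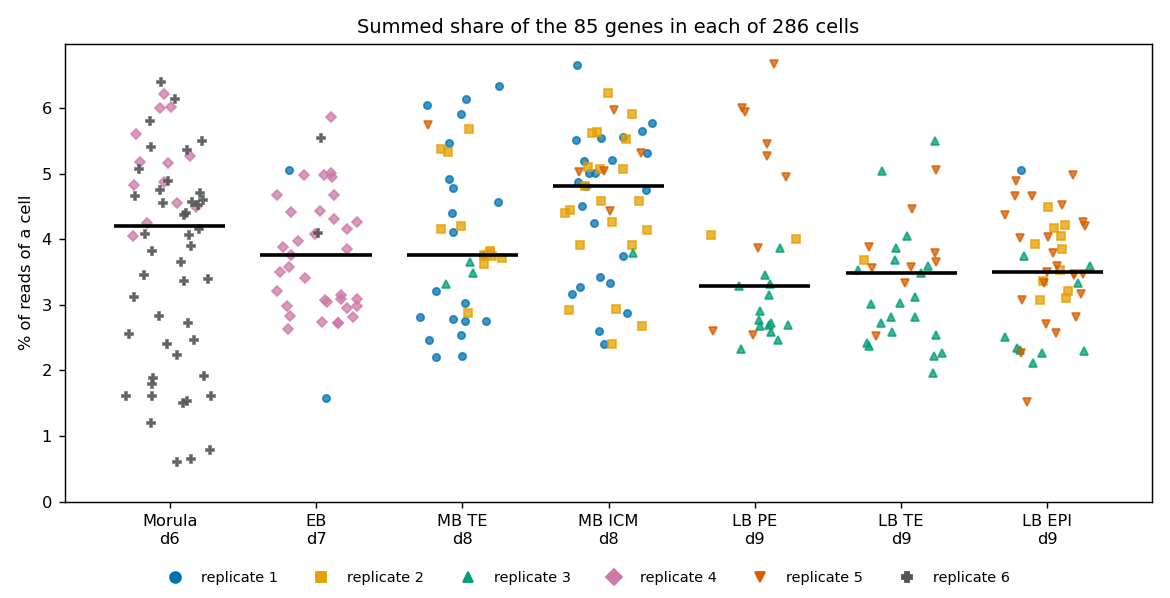
Summed share of the 85 genes in each of 286 cells (percent of the reads of the cell), by class and day; colour and shape give the library and the bar the class median. The median is 3.5% in LB EPI and 4.81% in MB ICM, and LB PE cells of replicate 5 lie mostly above those of replicate 3.

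The 3 X-linked genes of the set, NDUFA1 and NDUFB11 of complex I and COX7B of complex IV, were not called with limma on the averages in any of the 10 comparisons. NDUFB11 was at 207 ± 73.6 CPM in MB TE and 327 ± 76.7 CPM in MB ICM (SD, n = 3 each; log2 change −0.61, SE 0.27, adjusted p = 0.167, limma), and it was called lower with summed reads (−0.89, adjusted p = 0.0294) and with voom (−0.81, 0.0391).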

How the data were processed

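The deposited table holds natural log values, made by the authors as ln of 1 plus reads per 10000 assigned reads of a cell, as the values themselves show. Seurat, featureCounts, HISAT2 and Trim Galore are listed with build ARS-UCD1.2, per the submitters' processing notes. The log was undone, and every value then gave whole reads (100% within 0.1 reads), so depth is known. UMIs and the treatment of multi-mapped reads and pseudogene copies are not stated in the sources, and reads of a cell are not independent molecules, so floors cover counting error only. CPM was averaged over the cells of a class in a library (at least 3 cells, 16 averages), and of 288 listed cells 2 had no values. Another 2 libraries (BE3) were not analysed, and no doublet caller was run. Gene symbols were matched to the RefSeq table of ARS-UCD2.0 for names and X linkage only.

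Averages were tested as log2(CPM + 10) with limma 3.58.1 (trend and robust, R 4.3.3, statmod 1.5.0) in 1 fit over 7 classes, for 12540 genes with at least 10 CPM in enough averages, with Benjamini-Hochberg adjustment over all of them. Averages of the same library were treated as a replicate block (consensus correlation 0.1799), since 1 library can hold several classes. The value added understates changes of low genes. A count model was not the main test, because the deposited values are not counts, and limma-voom on the recovered reads was an alternative. The genes and lists were chosen with earlier results of these data known. Named genes were those called, the main isoforms and the extremes of each complex, and the text prints part of them.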

Additional observations from a re-analysis of the deposited data

How the results depend on the processing

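COX7A1 in LB EPI over MB ICM kept its call under all alternatives, and no called gene reversed. Numbers of genes called otherwise moved, and the cause was not tested. For LB EPI over MB ICM, genes called lower were 6 in the report, 3 with no filter on low values or with logs averaged over cells, 10 with summed reads, 16 with voom, and 1 to 7 leaving out each library (higher, 1 to 1). For MB TE over MB ICM, lower calls were 0 with at least 5 cells, 2 with summed reads, 3 with voom and 0 to 1 without a library; its summed share of complex III was 0.766 of MB ICM with summed reads and that of the ATP synthase 0.786. For LB TE over LB EPI, higher calls were 0 with no filter, no replicate block or median-ratio scaling, 1 with averaged logs, 5 with summed reads or voom and 0 to 2 without a library, and lower calls were 0 with 1 CPM added, 3 with voom and 0 to 1 without a library. For LB PE over LB EPI, higher calls were 0 with 1 CPM added, no filter, no replicate block, averaged logs or median-ratio scaling, 2 with at least 5 cells and 0 to 2 without a library, and lower calls were 0 with no filter, no replicate block, median-ratio scaling or voom, 2 with summed reads, 3 with averaged logs and 0 to 1 without a library. For LB PE over LB TE, higher calls were 0 with no filter, no replicate block, averaged logs or median-ratio scaling and 0 to 1 without a library. With no filter, the gene called in the comparisons with EB was COX4I2 each time. Its log2 change was 0.34 in EB over Morula, −0.39 in MB ICM over EB and −0.39 in MB TE over EB. It had 7 reads in 4 cells of the series. Leaving out the replicate block thus ended every call between day 9 classes but that of COX7A1 in LB TE over LB EPI, and it ended those of UQCRB (adjusted p = 0.0719) and NDUFB7 (0.0713) in LB EPI over MB ICM. Median-ratio scaling moved the median of all genes from −0.12 to 0.01 in MB ICM over EB and from −0.14 to −0.01 in MB TE over EB, and averaged logs moved it to −0.12 in LB PE over LB EPI and LB PE over LB TE. Few libraries limit every comparison, the low depth of LB PE cells those with LB PE, and the single EB average those with EB.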
